A study of Mus musculus with 21 samples.

Results

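The RNA of 10 genes of the Notch pathway was followed through acquired resistance to a MEK inhibitor and its loss in murine pancreatic ductal adenocarcinoma (PDAC) cells. The genes were taken by symbol for their place in the pathway, with earlier results of these data known. They were the receptors Notch1, Notch2, Notch3 and Notch4, the ligands Jag1, Jag2 and Dll1, and the targets Hes1, Hey1 and Heyl. All 10 were among the 34478 genes of the deposited table. The table covers 6 primary cell lines, #3, #4, #6, #7, #9 and #10, each started from the tumor of 1 mouse. Every line, in every state, carried Trp53 loxP/loxP and Ptf1a wt/Cre, in which Cre expressed from the pancreatic Ptf1a locus deletes Trp53. Parental cells (6 samples) were treatment-naive, and resistant cells (6 samples) had been adapted to rising trametinib and were kept in 100 times their IC50, a measure of the dose that lowers viability. P12 cells (6 samples) were resistant cells grown for 12 passages without the drug, and P5 cells (3 samples, lines #3, #7 and #9) for 5 passages. For P5 of lines #7 and #9 one label field gives 12 drug-free passages while the title and group give P5, and the name P5 is kept here. There is 1 library for a line in a state, which makes the lines the replicates. The study describes resistant cells as descending from a single cell of their parental line, from genome sequencing of lines #3 and #9.

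Notch receptors are single-pass membrane proteins that are activated by ligands of the Jagged and Delta-like families on neighbouring cells. Ligand binding, and the pull exerted when the ligand is taken up by its own cell, exposes the receptor to the metalloprotease ADAM10 and then to gamma-secretase. The freed intracellular part enters the nucleus, joins the DNA-binding protein RBPJ and a Mastermind-like coactivator, and switches on genes of the Hes and Hey families, which encode transcriptional repressors. In the pancreas the pathway is known for holding progenitors undifferentiated through Hes1 and for its reactivation in precursor lesions and PDAC.

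All values are DESeq2-normalized counts, in which sequencing depth was evened out between samples by the authors, and they compare 1 gene between samples. Changes are differences of log2(normalized count + 1), and a gene passed the test at a limma adjusted p below 0.05 (Benjamini-Hochberg over the 19300 genes with at least 10 normalized counts in at least 3 samples). The estimated depth was 24.1 to 42.7 M reads per sample, at which 3 reads correspond to 2.31 to 4.07 normalized counts, taken here as the limit of detection, for counting error only. Of the 10 genes 9 were tested, and Heyl was not. As a check of the states, the summed level of 8 MEK-ERK output genes was 20156 to 26172 in parental, 407 to 3311 in resistant, 24414 to 36026 in P5 and 19636 to 33523 in P12 samples. The ductal marker Krt8 was at 10075 or more outside line #9, except in P5 of line #3 at 8832, and at 140 to 546 in the 4 samples of line #9. The epithelial cadherin gene Cdh1 was at 8.7 to 816 in line #9. It was also low in resistant lines #3, #4 and #6, at 73.1, 4.01 and 43.7, against 27906, 36777 and 26491 in their parental samples. In lines #10 and #7 Cdh1 went from 32192 and 53229 in parental to 2120 and 16401 in resistant cells. Among the parental samples, line #9 was lowest in Krt8, Cdh1, Krt19 (3074), Krt18 (11364), Krt7 (142) and Cldn4 (7.96). Sox9, on the same list of ductal markers, was highest in parental line #9, at 2421. Epcam was listed at 0 in nearly all samples beside high keratin counts, so a value of 0 in this table can be a failed estimate and is given only as listed at 0.

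Resistant cells held less RNA of 1 receptor, 2 ligands and 1 target than parental cells. Of the 9 tested genes, 4 fell (Notch1, Jag2, Dll1 and Hes1) and 0 rose, beside 15.6% of all tested genes that changed, 7.73% upwards and 7.9% downwards. Their median log2 change was -1.17 and that of all tested genes -0.0049. Jag2 also passed a stricter rule (log2 change beyond 1 and adjusted p below 0.01), as did 5.3% of all genes. A fit that paired the samples by line called 5 of the 9 genes and 26% of all genes. Notch1 had a log2 change of -2.65 (SE 0.85), Dll1 of -2.60 (SE 0.86), Jag2 of -2.02 (SE 0.37) and Hes1 of -1.17 (SE 0.32). Leaving out any 1 line left between 1 and 3 of the 9 genes past the test, and Jag2 was past it each time.

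**Figure D1:**
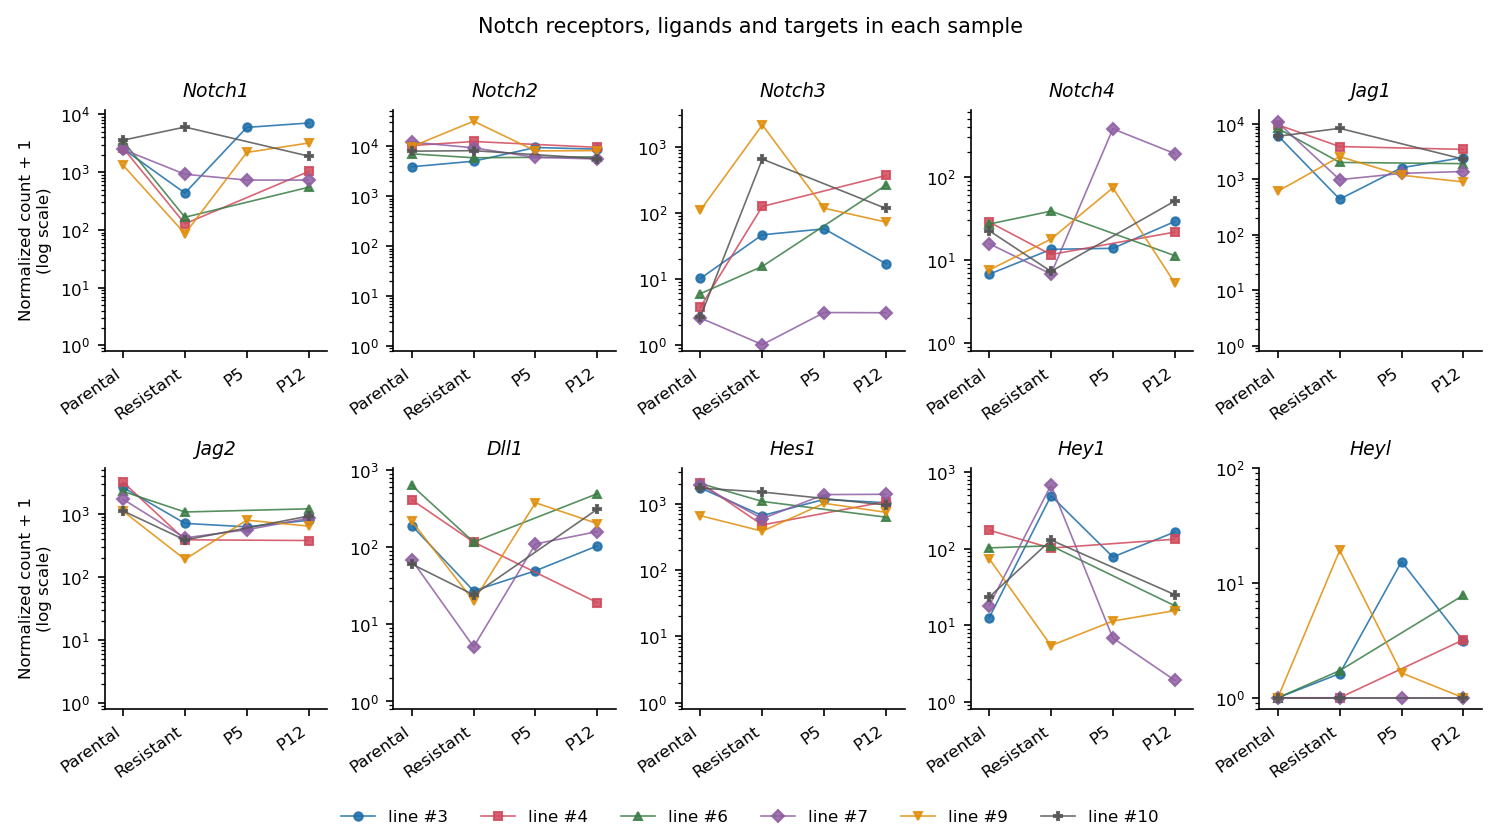
Normalized count + 1 on a log axis of the 10 genes in each sample, with 1 colored line per cell line joining its states (lines #4, #6 and #10 have no P5 sample). Jag2, Dll1 and Hes1 go down from parental to resistant in 6 of 6 lines and Notch1 in 5 of 6, while Notch2 is at 3890 or more in all samples and Heyl is at or near 0.

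The 4 receptors lay on different scales. Per kilobase of merged exons, Notch2 was the highest receptor in 21 of 21 samples, with a median of 826 normalized counts per kb in parental cells against 181 for Notch1, 2.25 for Notch4 and 0.473 for Notch3. In parental cells the ranges of Notch2 (361 to 1124) and Notch1 (92.5 to 251) did not overlap, and neither did those of Notch1 and Notch4 (0.710 to 3.43), while Notch4 and Notch3 (0.190 to 13.4) overlapped. As a share of the summed receptor counts per kb, Notch1 made up 9.09% to 32.9% in parental cells. In resistant cells its share was 0.185% to 6.94% in 5 lines and 33.6% in line #10, with a median of 4.05% against 20.6% in parental cells. The median share of Notch2 was 79.1% in parental, 92.8% in resistant and 82.3% in P12 cells. Exon lengths do not correct for which transcripts are used, so these shares are approximate.

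**Figure D2:**
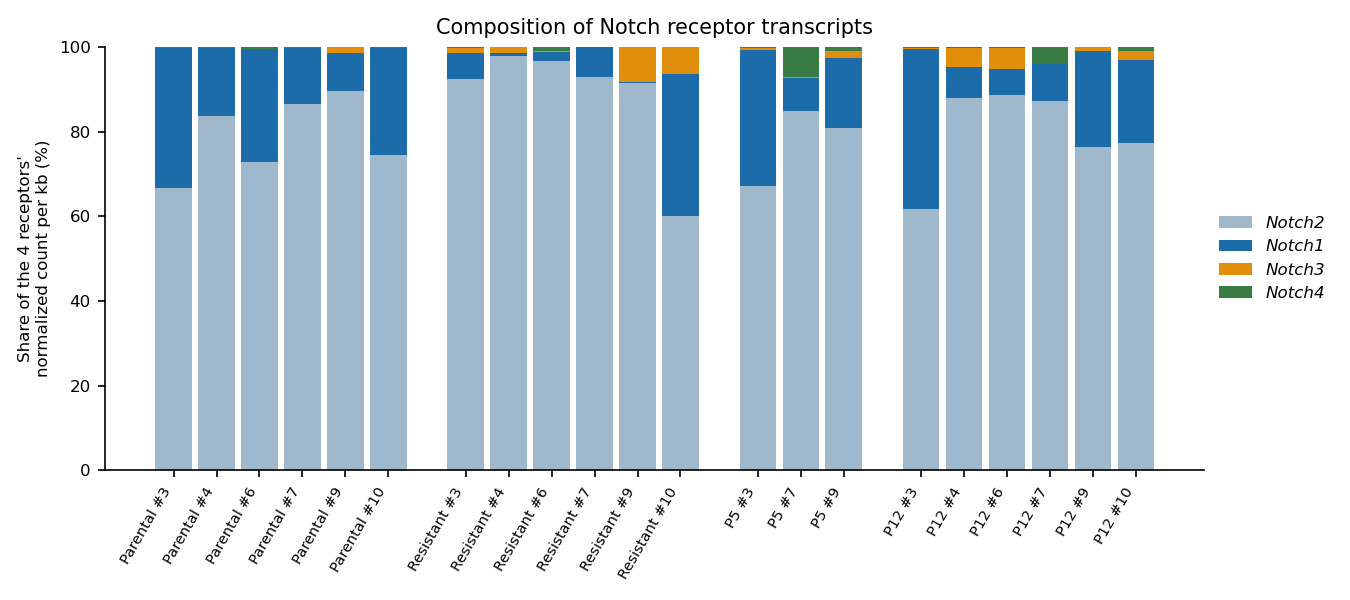
Share of each receptor in the summed normalized counts per kb of the 4 Notch receptors, in percent, 1 bar per sample. Notch2 (light blue) is the largest part of all 21 bars, and the Notch1 part (dark blue) is under 7% in 5 of 6 resistant samples and 33.6% in resistant line #10.

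Notch1 (chromosome 2, 26457903 to 26516663, minus strand, GRCm38) was at 1316 normalized counts in parental line #9, at a median of 2570 and at 3572 in line #10. In resistant cells the lowest value was 84.9 in line #9, the median 299 and the highest 6031 in line #10. The resistant values of lines #3, #4, #6, #7 and #9 (84.9 to 917) all lay below the lowest parental value, and line #10 was the single line in which Notch1 was higher in resistant than in parental cells. The fitted decrease was 6.26-fold (adjusted p = 0.0396). The call was lost when line #3, #4, #6, #7 or #9 was left out (log2 changes of -2.89 to -2.30, adjusted p = 0.0511 to 0.148), and without line #10 the log2 change was -3.33 (adjusted p = 0.0121). It was also lost with no filter (adjusted p = 0.0587) and with parental and resistant cells fitted alone (adjusted p = 0.0559). After withdrawal, Notch1 was at 5947, 727 and 2194 in P5 of lines #3, #7 and #9, and in P12 at 546 in line #6, at a median of 1459 and at 7081 in line #3. P12 of line #3 was thus above its parental 2529, while P12 of line #7, at 728, was below its resistant 917. The genes 0610009E02Rik and Gm13568 overlap Notch1 on the other strand, and whether strand was used in counting is not given in the sources used here.

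The sequence before the Notch1 start is shown because Notch1 is the receptor that fell, and because its window can be set beside those of other pathway genes below. It is the 250 bases at chr2:26503823-26504072 on the minus strand (RefSeq, GRCm38.p6), 5′ to 3′. This is the start that RefSeq gives. The wider GENCODE bounds above come from another transcript that starts further upstream, so the window lies inside the gene as GENCODE bounds it. TGGGAA, the core of RBPJ sites, and TGACTCA, an AP-1 site (the factor downstream of MEK and ERK), were searched on both strands, and neither string is in this window.
Notch1: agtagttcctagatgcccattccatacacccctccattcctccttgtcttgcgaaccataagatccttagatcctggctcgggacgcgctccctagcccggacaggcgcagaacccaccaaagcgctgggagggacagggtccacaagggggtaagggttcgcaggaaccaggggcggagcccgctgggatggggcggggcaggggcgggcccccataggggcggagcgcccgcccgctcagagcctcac
RefSeq windows were matched for 7 of the 10 genes, the receptors and ligands, 8 windows in all. The targets Hes1, Hey1 and Heyl had no window and were not searched. Of the 8 windows, 0 held TGGGAA or TGACTCA on either strand. Of all 32851 promoter windows of the same length, 21.6% held the RBPJ core and 4.46% the AP-1 site. The window of Jag2 lay in GENCODE exons over all 250 bases, a window of Dll1 over 153 and that of Jag1 over 124. For Notch3 and a window of Dll1, the bases after the RefSeq start were not found in the gene's GENCODE transcripts.

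Notch2 (chromosome 3, 98013527 to 98150361, plus strand) had broadly overlapping levels in the 4 states. Parental values ran from 3890 in line #3 over a median of 8903 to 12123 in line #7, and resistant values from 5025 in line #3 over a median of 8742 to 31724 in line #9. The groups overlapped, and resistant line #9 lay furthest above the parental range. The log2 change was 0.29 (95% interval -0.45 to 1.02, adjusted p = 0.642). In P12 the values ran from 5574 in line #7 to 9519 in line #4 with a median of 7159, and P5 was at 9452, 5988 and 8083 in lines #3, #7 and #9. Gm42819 and Gm42820 overlap Notch2 on the same strand, so reads can be split between them.

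Notch3 (chromosome 17, 32120820 to 32166852, minus strand) was near the limit of detection in parental cells and high in some resistant lines. Its parental values were 1.54 in line #7, a median of 3.82 and 108 in line #9, with 3 of 6 at or below the limit. Resistant line #7 was listed at 0, the median was 84.4, and lines #10 and #9 reached 649 and 2145. Notch3 was higher in the resistant sample in 5 of 6 lines, line #7 being the exception, and the groups overlapped. The log2 change of 3.26 (SE 1.605) did not pass (adjusted p = 0.185). With the cell line as a block the adjusted p was 0.0450 (0.0839 with these states alone), and without line #7 the log2 change was 4.18 (adjusted p = 0.0400). The lines also differed after withdrawal. P12 was at 2.05 in line #7, at a median of 93.0, and at 366 in line #4 and 261 in line #6, above the resistant 124 and 14.4 of these lines. P12 of lines #9 and #10 was at 71.1 and 115, below their resistant values. P5 was at 56.0, 2.07 and 115.965 in lines #3, #7 and #9.

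Notch3 is known from pericytes and vascular smooth muscle, so the 8 fixed marker genes of those cells are given beside it. Their summed level was 48.1 to 5478 in parental, 314 to 34201 in resistant and 369 to 34928 in P12 samples. Acta2, which encodes smooth muscle actin, was at 17910, 16393 and 8572 in resistant lines #10, #4 and #9. Pdgfrb, a receptor of pericytes and fibroblasts, was at 231, 86.8 and 17519. Cspg4, on the same list, was at 1.26, 2.50 and 22.1 there, against 11.7, 45.9 and 1139 in their parental samples. Rgs5 was at 0, 1.33 and 7.37, against 3.22, 1.78 and 22.1. Acta2, Pdgfrb, Mcam and Des were higher in these resistant samples than in the matching parental ones. The defining smooth muscle gene Myh11 was listed at 0 in all 6 resistant and all 6 P12 samples, and the pericyte gene Kcnj8 at 0 in all 6 resistant samples. The summed level of 8 fibroblast markers was 122 to 22062 in parental and 1918 to 560376 in resistant samples. The part of these genes in the Notch3 values was not tested.

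Notch4 (chromosome 17, 34564268 to 34588503, plus strand), a receptor best known from endothelium, was low in nearly all samples. It was at 5.73 to 27.6 in parental cells (median 18.1) and at 5.77 to 37.7 in resistant cells (median 11.5), and the ranges overlapped. The exceptions came after withdrawal in line #7, with 378 in P5 and 190 in P12. P5 was otherwise at 12.8 in line #3 and 72.7 in line #9, and P12 at 4.28 (line #9) to 50.2 (line #10). No change passed the test, and the largest was P5 against resistant with a log2 difference of 2.46 (SE 0.99, adjusted p = 0.228), higher in 3 of 3 lines. With single lines left out it ranged from 1.08 to 3.67, and in line #3 the values were 12.8 and 12.4. The endothelial cadherin gene Cdh5 was at 114 in P5 and 93.0 in P12 of line #7, against 0.7 in its parental and 0 in its resistant sample. Within line #7 the endothelial gene Pecam1 was at 16.9 in parental, 9.65 in resistant, 32.5 in P5 and 27.9 in P12. From resistant to P12 of line #7, Kdr went from 0.84 to 2.90, both below the limit of detection. Tek went from 5.34 to a listed 0. Among the 6 P12 samples, Pecam1 and Kdr were lowest in line #7, and Tek was listed at 0 in 2 samples, line #7 among them. Cdh5 was also at 65.9 in parental line #6, where Notch4 was at 26.05. The summed level of the endothelial list was 221 to 3177 in parental, 252 to 7745 in resistant, 290 to 1303 in P5 and 342 to 4624 in P12 samples. The part of these genes in the Notch4 values was not tested.

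Among the ligands, Jag1 was the highest per kilobase in 19 of 21 samples, and Jag2 in parental line #9 and resistant line #3. Jag2 (chromosome 12, 112907819 to 112929776, minus strand) was the single member that passed under every alternative tried. Parental cells held 1109 normalized counts in line #9, a median of 2002 and 3216 in line #4. Resistant cells held 189 in line #9, a median of 403 and 1077 in line #6, so the groups did not overlap. The decrease was 4.07-fold (log2 change -2.02, SE 0.37, adjusted p = 0.0013), with adjusted p values of 0.0019 to 0.0087 when single lines were left out. After withdrawal Jag2 was at 625, 563 and 798 in P5 of lines #3, #7 and #9, and at 378 (line #4) to 1210 (line #6) in P12 with a median of 824. All 3 P5 values were below the parental range, and in 6 of 6 lines P12 held less than the matching parental sample.

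Jag1 (chromosome 2, 137081456 to 137116644, minus strand) divided the lines. In parental cells it was at 611 in line #9 and between 6022 (line #10) and 10667 (line #7) in the other 5 lines, with a median of 7279. In resistant cells it was lowest at 440 in line #3, at a median of 2303 and highest at 8358 in line #10. Lines #3, #4, #6 and #7 were lower in the resistant sample, and lines #9 and #10 higher. The log2 change was -1.34 (SE 0.66, adjusted p = 0.188). Without line #9, whose parental value stood apart, it was -2.02 (adjusted p = 0.0243). P5 was at 1624, 1286 and 1190 in lines #3, #7 and #9, and P12 at 901 in line #9, a median of 2123 and 3486 in line #4. All 9 drug-free values lay below the 5 higher parental values.

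Dll1 (chromosome 17, 15367354 to 15376872, minus strand) was the lowest of the 3 ligands. Parental values were 59.7 in line #10, a median of 204 and 636 in line #6. Resistant values were 4.12 in line #7, close to the limit of detection, a median of 24.7, and 115.9 and 116.1 in lines #4 and #6. The groups overlapped, and the resistant sample was lower in 6 of 6 lines. The decrease was 6.06-fold (adjusted p = 0.0450), close to the threshold. It was lost when line #3, #6, #7, #9 or #10 was left out (adjusted p = 0.0709 to 0.130), with a pseudocount of 8 (0.0505), with no filter (0.0671), with no trend (0.0504) and with the 2 states fitted alone (0.0511). P12 was at 18.2 in line #4, at a median of 181 and at 495 in line #6, and P5 was at 48.6, 110 and 378 in lines #3, #7 and #9. Line #4 was the single line with less Dll1 in P12 than in resistant cells (18.2 against 115.9). The gene A930024N18Rik overlaps Dll1 on the other strand.

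Hes1 (chromosome 16, 30064384 to 30067796, plus strand), the repressor that keeps pancreatic progenitors from differentiating, was the highest of the 3 targets per kilobase in 21 of 21 samples. It was at 661 in parental line #9 and between 1726 and 2074 in the other 5 parental lines (median 1823). In resistant cells it was at 386 in line #9, at a median of 631 and at 1509 in line #10. Outside line #9 all resistant values were below all parental values, and the resistant sample was lower in 6 of 6 lines. The decrease was 2.26-fold (adjusted p = 0.0188). It was lost without line #3, #4 or #7 (adjusted p = 0.0630 to 0.0994), and without line #9 the log2 change was -1.25 (adjusted p = 0.0065). P5 was at 1168, 1380 and 1019 in lines #3, #7 and #9, and P12 at 628 (line #6) to 1394 (line #7) with a median of 999.

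Hey1 (chromosome 3, 8663359 to 8667256, minus strand), a repressor of the same family, differed between lines in its direction. From parental to resistant it went from 11.5 to 492 in line #3, from 16.8 to 676 in line #7 and from 22.2 to 129 in line #10, and from 73.1 to 4.40 in line #9. Line #4 went from 174 to 101, and line #6 was at 102 and 108. The log2 change was 1.43 (SE 1.16, adjusted p = 0.452), with 4 lines higher and 2 lower. In P12 Hey1 was at 164 in line #3, 132 in line #4, 16.9 in line #6, 0.898 in line #7, 14.5 in line #9 and 24.03 in line #10. P5 was at 77.0, 5.76 and 10.3 in lines #3, #7 and #9. Heyl (chromosome 4, 123233556 to 123249875, plus strand) reached 10 normalized counts in 2 samples, 18.1 in resistant line #9 and 14.2 in P5 of line #3, and was listed at 0 in all 6 parental samples.

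**Figure D3:**
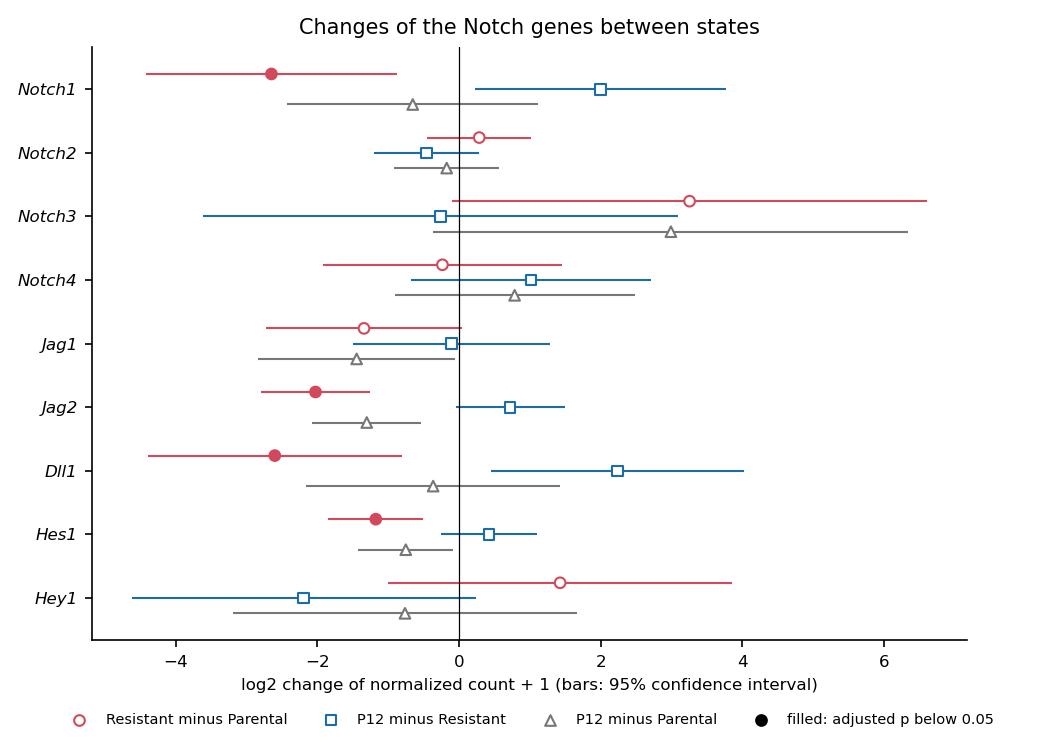
Log2 change of normalized count + 1 (x axis) of the 9 tested genes between resistant and parental, P12 and resistant, and P12 and parental cells (6 lines each). Bars are 95% confidence intervals from limma and filled symbols have an adjusted p below 0.05, which the resistant against parental change of Notch1 (-2.65), Jag2 (-2.02), Dll1 (-2.60) and Hes1 (-1.17) reached.

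After 12 passages without trametinib, 0 of the 9 genes differed from resistant cells at an adjusted p below 0.05 in limma, where 6.22% of all tested genes did. At an unadjusted p below 0.05 there were 2 of the 9, Dll1 and Notch1, beside 3821 of the 19300 tested genes. Dll1 had a log2 change of 2.24 (SE 0.86, adjusted p = 0.138) and was higher in 5 of 6 lines. Without line #4 it passed, with a log2 change of 3.20 (adjusted p = 0.0392). Notch1 had a log2 change of 2.00 (SE 0.85, adjusted p = 0.189) and was higher in 4 of 6 lines. Jag2 (0.72, 95% interval -0.05 to 1.495) and Hes1 (0.42, interval -0.25 to 1.10) had smaller differences, and that of Jag1 was -0.10 (interval -1.49 to 1.28). These values share the resistant samples with the comparison above.

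Against parental cells, 0 of the 9 genes differed in P12 by limma, beside 0.658% of all tested genes. An unadjusted p below 0.05 was reached by 3 of the 9 (Jag1, Jag2 and Hes1), all lower in P12, beside 2953 of the 19300 tested genes. Jag2 was lower by a log2 change of -1.30 (SE 0.37, adjusted p = 0.110) and in 6 of 6 lines. With the cell line as a block its adjusted p was 0.0343, in a fit that called 5.32% of all genes, and with the block and these states alone it was 0.0865. Jag1 had a log2 change of -1.44 (SE 0.66, adjusted p = 0.307) and was lower in 5 of 6 lines. Hes1 had a log2 change of -0.75 (SE 0.32, adjusted p = 0.271) and was lower in 5 of 6 lines. The 95% intervals for Notch1 (-2.42 to 1.12) and Dll1 (-2.15 to 1.43) included no change, and neither gene passed between P12 and resistant cells. These values share the parental and P12 samples with the comparisons above.

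In P5, which rests on 3 samples, 0 of the 9 genes differed from resistant cells by limma (2.07% of all tested genes did) and 0 from parental cells (0.0466%). At an unadjusted p below 0.05 there were 2 of the 9 against resistant cells (Notch1 and Notch4) and 3 against parental cells (Jag1, Jag2 and Notch4). Of the 19300 tested genes, 2976 against resistant and 2003 against parental cells had such a p. Jag2 was lower than in parental cells in 3 of 3 lines (log2 change -1.51, SE 0.45, adjusted p = 0.282). Notch1 was above resistant cells in lines #3 and #9 and below in line #7, with a log2 change of 2.39 (SE 1.04, adjusted p = 0.270).

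The other genes of the pathway came from a fixed list of 55, of which 54 were in the table and 50 were tested. Between resistant and parental cells 16 of the 50 passed, 9 higher and 7 lower in resistant cells, beside 15.6% of all tested genes (7.73% higher, 7.9% lower), with a median log2 change of -0.24. When single lines were left out, 10 to 19 passed. The nuclear complex, which turns the signal into transcription, fell in 3 of 7 genes. These were Rbpj, the DNA-binding partner of the receptor, and the coactivators Maml2 and Maml3. Of 7 other target genes, Nrarp, Sox9 and Ccnd1 fell and Hey2 rose. Of 9 protease genes 3 rose, of 12 genes of ligand uptake and receptor turnover 3 rose, and of 6 genes of receptor maturation and glycosylation 2 rose and 1 fell. The 5 corepressors and 4 further ligands did not pass, and their lowest adjusted p values were 0.284 (Ncor1) and 0.167 (Dlk1).

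**Figure D4:**
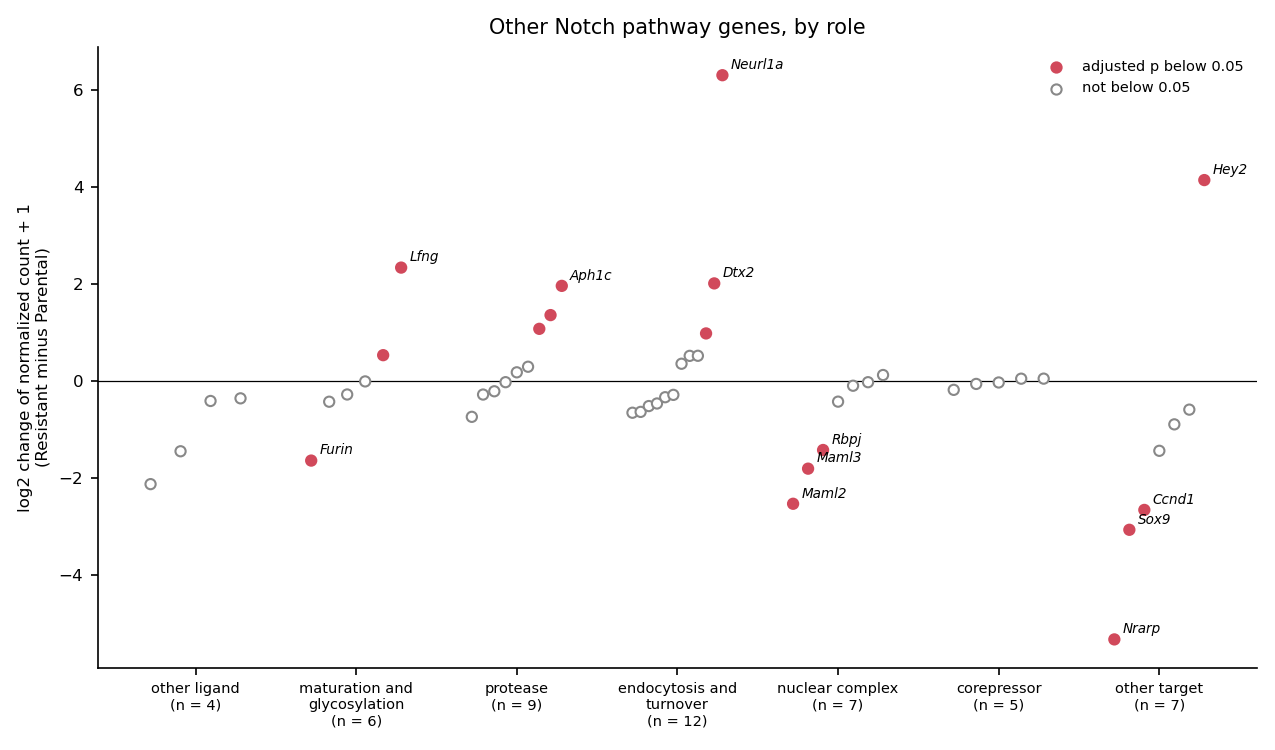
Log2 change of normalized count + 1 between resistant and parental cells (y axis, 6 lines each) for the 50 other pathway genes tested, grouped by role with the number tested. Filled points have an adjusted p below 0.05, with Neurl1a highest at 6.31 and Nrarp lowest at -5.33, and all 3 filled points of the nuclear complex are below 0.

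Nrarp, a target whose product binds the Notch nuclear complex and dampens it, showed the largest decrease. It was at 267 in parental line #9, at a median of 837 and at 1071 in line #4, against 1.25 in resistant line #9, a median of 15.2 and 110 in line #7. The groups did not overlap. The log2 change was -5.33 (SE 0.71, adjusted p = 1.0e-04), lower in 6 of 6 lines. In P12 it was at 294 (line #6) to 1509 (line #10), all above the resistant values, with a log2 change of 5.49 (SE 0.71, adjusted p = 1.4e-04). Sox9, a transcription factor of ductal and progenitor cells, went from 673 to 2421 in parental to 37.6 to 679 in resistant cells (log2 change -3.06, SE 0.62, adjusted p = 0.0029) and to 1002 to 3813 in P12 cells, all above the resistant values. Sox9 is also 1 of the 8 ductal markers, whose summed level was 18371 to 283872 in parental and 1693 to 210019 in resistant samples. Ccnd1, the cyclin D1 gene, which is also a known output of ERK signaling, was at 22345 to 27460 in parental and 863 to 10806 in resistant cells (log2 change -2.65, SE 0.46).

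Rbpj was at 3350 in parental line #4, at a median of 6068 and at 12602 in line #9. Resistant cells held 1240 in line #9, a median of 2312 and 3133 in line #10, all below the parental range (log2 change -1.42, SE 0.33, adjusted p = 0.0067). P12 cells were at 3029 to 8824 (log2 change against resistant 1.20, SE 0.33, adjusted p = 0.0314), a call that was lost without line #3, #6, #7, #9 or #10 (adjusted p = 0.0512 to 0.117). Maml2 fell from 456 to 1762 in parental to 33.2 to 355 in resistant cells (log2 change -2.53, SE 0.48, adjusted p = 0.0017) and was at 715 to 2261 in P12. Maml3 was lower in 6 of 6 resistant samples (log2 change -1.80, SE 0.53, adjusted p = 0.0262), without the call when line #3, #4, #6 or #7 was left out (adjusted p = 0.0644 to 0.102). Maml1, Ep300 and Crebbp, coactivators that many pathways share, had log2 changes of -0.02, -0.09 and 0.13 and did not pass.

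Hey2, a repressor related to Hey1, was listed at 0 in 4 of 6 parental samples and was at 5.44 in line #4. In resistant cells it was listed at 0 in line #9 and was at 10.3, 22.9, 49.1, 164 and 181 in lines #3, #7, #6, #10 and #4. It was thus above the parental sample in 5 of 6 lines, and line #9 was listed at 0 in every state. In P12 it was at or below the limit of detection in 6 of 6 samples. Hey2 met the filter on low values through the resistant samples alone, so it had to differ between the states, and its calls in the counts given here carry no weight as tests. Its fitted change also depended on the pseudocount, at 4.15 with 1, 2.34 with 8 and 4.72 with 0.5.

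**Figure D5:**
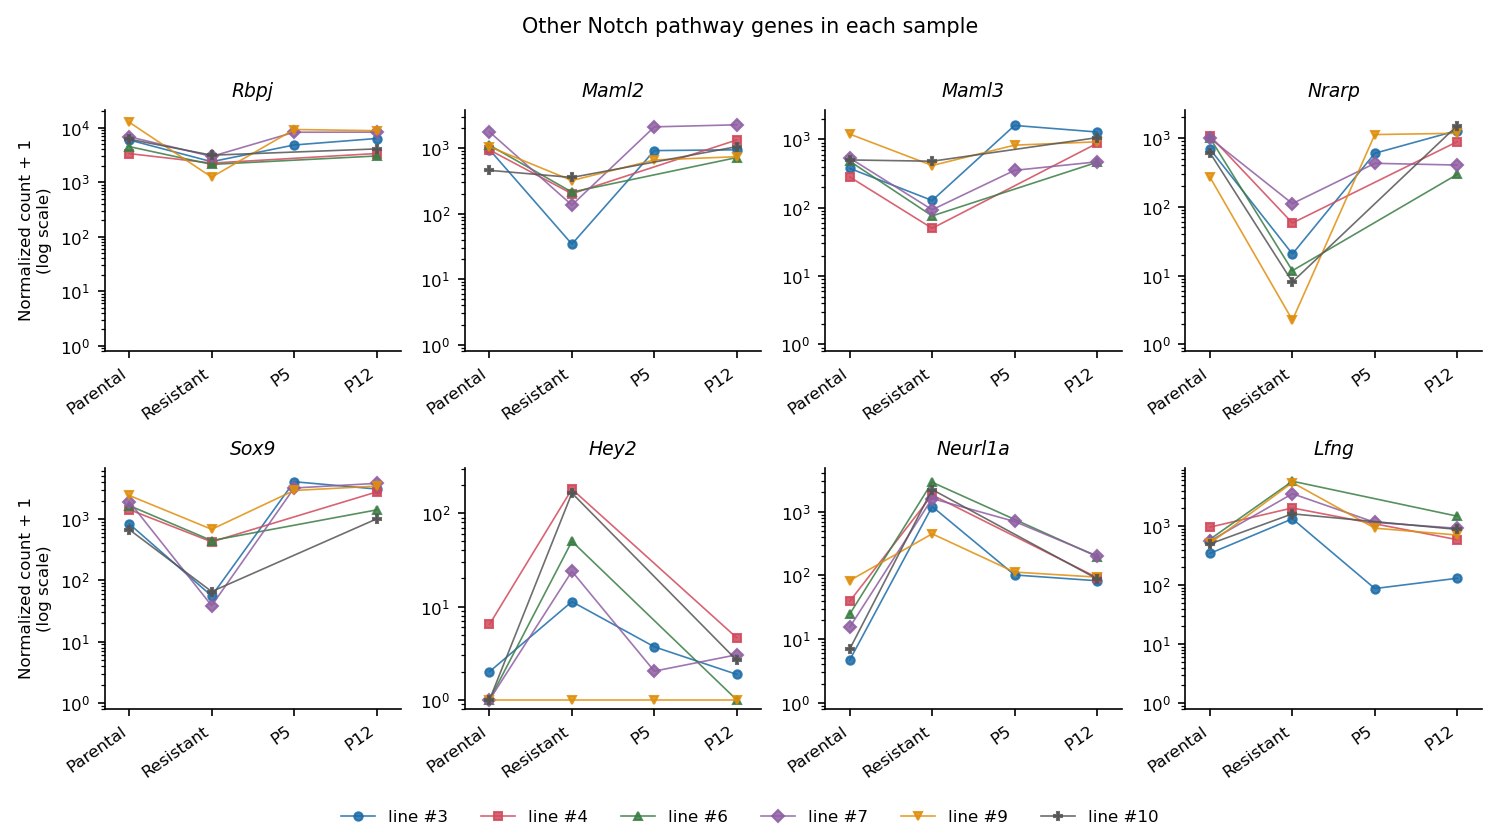
Normalized count + 1 on a log axis of 8 other pathway genes in each sample, 1 colored line per cell line. Nrarp, Sox9, Rbpj and Maml2 are lower in resistant than in parental and P12 cells in 6 of 6 lines, Neurl1a and Lfng higher in 6 of 6 lines, and Hey2 higher in 5 of 6.

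Neurl1a, which encodes a ubiquitin ligase that drives uptake of Notch ligands, had the largest rise. It was at 3.69 in parental line #3, at a median of 19.0 and at 81.9 in line #9, and at 448 in resistant line #9, a median of 1715 and 2888 in line #6. The groups did not overlap (log2 change 6.31, SE 0.64, adjusted p = 6.3e-06, 6 of 6 lines). P12 cells were at 81.2 to 201, below all resistant values and in 6 of 6 lines above the matching parental value. The log2 change of P12 against parental cells was 2.65 (SE 0.64, adjusted p = 0.0647), with an adjusted p of 0.0259 when samples were paired by line, of 0.0644 with that pairing and these states alone, and of 0.0150 without line #9. Dtx2, a Deltex ubiquitin ligase that binds Notch receptors, was at 545 to 782 in parental and 1243 to 8185 in resistant cells (log2 change 2.02, SE 0.36, adjusted p = 0.0011). Lfng, a fringe glycosyltransferase that changes which ligands a receptor answers to, was at 344 to 960 in parental and 1329 to 5769 in resistant cells (log2 change 2.34, SE 0.61, adjusted p = 0.0135). Without line #6 the adjusted p of Lfng was 0.0580.

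Furin, the convertase that cuts receptors during maturation, fell by 1.64 on the log2 scale (SE 0.39, adjusted p = 0.0090), lower in 5 of 6 lines, with line #9 higher. The Furin call was lost without line #4 (adjusted p = 0.0536) or #6 (0.0504). Aph1c and Aph1b, near-identical copies of a gamma-secretase subunit gene whose reads can be split wrongly between them, rose by 1.97 (SE 0.61, adjusted p = 0.0328) and 1.36 (SE 0.24, adjusted p = 0.0010). The Aph1c call was lost without line #3, #4, #6 or #10 (adjusted p = 0.0739 to 0.153). Aph1b, Adam10, Mib2 and Rfng were past the limit of 12 named genes and are named because they complete the 16. Adam10, which makes the first activating cut, rose by 1.08 (SE 0.30, adjusted p = 0.0191), Mib2 by 0.99 (SE 0.31, adjusted p = 0.0378) and Rfng by 0.54 (SE 0.16, adjusted p = 0.0255). Each of the 3 lost its call without line #3 or #4 (adjusted p = 0.0605 to 0.1199) and without some other lines, up to an adjusted p of 0.155. The subunit genes Ncstn, Aph1a and Psenen did not pass.

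Between P12 and resistant cells 14 of the 50 other pathway genes passed, 8 higher and 6 lower in P12, beside 6.22% of all tested genes, and 7 to 10 when single lines were left out. Beside Nrarp, Sox9 and Rbpj these were, among the higher genes, Maml2 (2.68), Maml3 (2.45) and Ccnd1 (2.01), and among the lower genes Neurl1a (-3.66), Hey2, Lfng (-2.15) and Dtx2 (-2.01). The other 4, outside the rule for named genes, were Dner and Ncor1 (0.41), both higher, and Aph1b (-1.11) and Adam10 (-1.02), both lower. Dner, a ligand-like membrane protein gene, was listed at 0 in 6 of 6 resistant samples and was at 0 to 14.1 in P12, and its call was lost with a pseudocount of 8 (log2 difference 0.76, adjusted p = 0.124). Dner met the filter on low values only through states other than resistant. Its calls against resistant cells in the counts given here therefore carry no weight as tests. The calls of Ccnd1 (lines #9 and #10), Maml3 (line #3), Lfng (lines #4, #6, #7, #9 and #10), Aph1b (line #4), Adam10 (lines #3, #4, #9 and #10), Dner (lines #3, #4, #7, #9 and #10) and Ncor1 (lines #4, #6, #9 and #10) were lost when those lines were left out singly, with adjusted p values of 0.0507 to 0.198. Against parental cells, 0 of the 50 passed in P12 by limma, and up to 3 when a line was left out (line #9). An unadjusted p below 0.05 was reached by 8 of the 50, beside 2953 of the 19300 tested genes. In P5 against resistant cells 7 passed, beside 2.07% of all tested genes, with Nrarp (5.24) and Sox9 (4.37) highest, but 0 passed without line #3, or without P5 of lines #7 and #9, whose passage labels disagree. In P5 against parental cells 0 of the 50 passed, with 5 at an unadjusted p below 0.05, beside 2003 of the 19300 tested genes.

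Windows of 250 bases before the start were matched in RefSeq for 10 of the 12 named pathway genes, and Sox9 and Ccnd1 had none. For a window of Furin, the bases after the start were not found in its GENCODE transcripts. Of the 13 windows, 7 held TGGGAA or its reverse complement TTCCCA and 0 held TGACTCA, beside 21.6% and 4.46% of all windows. Of the 7, 2 are overlapping windows of Rbpj that share a match, with 132 and 250 of their bases in GENCODE exons. The RBPJ core was in windows of Lfng, Hey2 and Dtx2, which rose, and of Maml2, Maml3 and Rbpj, which fell. It was not in those of Neurl1a and Aph1c, which rose, or of Nrarp and Furin, which fell. Lfng and Hey2 are shown as genes that rose with the RBPJ core in their windows, and Nrarp as the gene that fell most, whose window does not hold it. They lie at chr5:140607091-140607340 (plus strand), chr10:30842784-30843033 (minus strand) and chr2:25180508-25180757 (plus strand) of GRCm38.p6, and are written 5′ to 3′ on the strand of the gene with TGGGAA or TTCCCA in capitals.
Lfng: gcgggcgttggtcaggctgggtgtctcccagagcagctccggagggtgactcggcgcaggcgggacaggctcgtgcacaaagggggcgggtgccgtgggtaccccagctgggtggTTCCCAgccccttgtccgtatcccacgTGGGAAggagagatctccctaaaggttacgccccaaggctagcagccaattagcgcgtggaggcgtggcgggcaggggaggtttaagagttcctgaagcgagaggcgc
Hey2: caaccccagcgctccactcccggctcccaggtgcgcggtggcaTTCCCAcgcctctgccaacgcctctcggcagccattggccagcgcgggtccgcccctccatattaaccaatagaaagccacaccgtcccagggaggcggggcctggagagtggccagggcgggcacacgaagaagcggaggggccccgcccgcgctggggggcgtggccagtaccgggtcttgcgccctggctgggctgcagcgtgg
Nrarp: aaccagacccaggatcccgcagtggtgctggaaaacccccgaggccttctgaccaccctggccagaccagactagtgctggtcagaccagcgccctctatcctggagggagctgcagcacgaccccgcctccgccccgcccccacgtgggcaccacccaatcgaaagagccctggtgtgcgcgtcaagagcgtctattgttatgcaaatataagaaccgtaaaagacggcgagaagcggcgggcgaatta
The matches begin 135 and 108 bases before the start of Lfng and 207 bases before that of Hey2. They are letters only, and nothing on the binding of RBPJ was measured here.

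Across the 21 samples, the pair of the 9 tested genes with the most similar profile was Jag2 and Dll1 (Pearson r = 0.676 of log2 values, and 0.598 with the state means taken out). The lowest pair was Notch3 and Hes1 (r = -0.556, and -0.403 with the state means taken out). For 8 of the 9 tested genes the most similar profile among all other tested genes is given. It was that of Fat1, an atypical cadherin gene, for Hes1 (r = 0.877), of Rab20 for Notch1 (r = 0.818), of Rnf208 for Jag2 (r = 0.820), of Ism1 for Dll1 (r = 0.702), of Pcdhb16 for Notch3 (r = 0.876), of Ckb for Hey1 (r = 0.856) and of Gm5784 for Jag1 (r = 0.817). For Notch2 it was Gm42820 (r = 0.864), which lies within Notch2 on the same strand. The 21 points come from 6 lines and share line and state, so these values describe the profiles and carry no test.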

How the data were processed

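RNA-seq was done on 21 samples of 6 lines (6 parental, 6 resistant, 3 P5, 6 P12) from stranded mRNA libraries. Per the labels and the study's methods, the authors trimmed reads, quantified transcripts against mm10 with Salmon 0.12, summed them to genes and normalized with DESeq2 1.18. The submitters' processing notes also name CASAVA 2.17 and bcl2fastq 2.19. The deposited values are a signal, size-factor-normalized gene counts, and not raw counts, so no count model was used. Low values lay on steps of 1 read (within 0.05 of a step) for 53.7% to 71.1% of values, too few to recover whole reads. Normalized counts summed to 2.86e+07 to 3.71e+07 per sample. Samples came from more than 1 sequencer, and which sample ran on which is not given in the sources used here, so no comparison within a sequencer was made.

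Genes with at least 10 normalized counts in at least 3 samples (19300 of 34478) were tested on log2(value + 1) with limma 3.58.1 in R 4.3.3, in 1 fit of all 21 samples with the 4 states, empirical Bayes moderation with a trend, and Benjamini-Hochberg adjustment over all tested genes. A fold change on this scale understates the change of low genes. The test was tested on simulated data with known changes. Per-line counts, summaries, promoter matches and plots used Python 3.11.15 with pandas 2.3.3, numpy 2.4.6 and matplotlib 3.10.9. Alternatives were pseudocounts of 0.5 and 8, no filter or a mean of at least 100, upper-quartile scaling, no trend, the stricter call rule, the compared states alone, the cell line as a block and each line left out.

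Same-numbered samples are the same cell line, so the numbers pair the samples. The correlation of their deviations from the group means was 0.159 to 0.352 for resistant and parental, 0.337 to 0.520 for P12 and resistant, 0.00819 to 0.510 for P12 and parental, 0.495 to 0.537 for P5 and resistant, and -0.0601 to 0.465 for P5 and parental samples. The unblocked fit was kept as the main one.

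The 10 genes and all lists were chosen with earlier results of these data known. All 10 were named whatever their values. Of the other pathway genes, those with an adjusted p below 0.05 in resistant against parental or P12 against parental cells were named, largest change first, at most 12. Coordinates and exon lengths are from GENCODE M21 (GRCm38), in which 31864 of the 34478 gene names were found. Promoter windows are from RefSeq (GRCm38.p6). A part of the shared genotype and some genes of the lists are not reported here.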

Additional observations from a re-analysis of the deposited data

Results flagged for a closer look

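Of 65 groups of 6 samples examined, 6 held a highest or lowest sample set far from the other 5. Chance alone gives about 1 in 20 where log2 values are normally distributed. Parental line #9 accounted for 4 of them. It had the lowest Notch1 (1316 normalized counts, with 2464 as the nearest value), the lowest Jag1 (611, nearest 6022), the lowest Hes1 (661, nearest 1726) and the highest Notch3 (108, nearest 9.08) of the parental samples. Resistant line #9 had the highest Heyl (18.1, nearest 0.722). The parental sample of line #4 had the highest Hey2 (5.44, nearest 1.01). These Heyl and Hey2 groups were mostly at or below the limit of detection, so the rate of 1 in 20 does not hold for them.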

How the results depend on the processing

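Of 2184 single-gene values recomputed, 1999 stayed on their side of the threshold, 168 lost the call, 17 gained it and 0 called values reversed. Of the 1999, 47 were values without a call that changed sign. The causes were not tested.

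Between resistant and parental cells, the 4 calls among the 9 genes became 2 with no filter, 1 under the stricter rule, 2 with the states fitted alone and 1 to 3 with a line left out. The 16 other pathway genes became 10 under the stricter rule and 10 to 19 with a line left out. All 3016 called genes became 5014 with the cell line as a block, 1023 under the stricter rule and 1476 to 3280 with a line left out. Between P12 and resistant cells, 0 of the 9 genes became 0 to 1 with a line left out. The 14 pathway genes became 7 under the stricter rule, 7 with the states alone, 9 with block and states alone and 7 to 10 with a line left out. All 1201 genes became 2454 with the block, 412 under the stricter rule, 576 with the states alone and 609 to 1510 with a line left out.

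Between P12 and parental cells, the cell line as a block gave 1 of the 9 genes and 1 pathway gene in place of 0, and 1026 of all genes in place of 127. With a line left out there were 0 of the 9 genes, 0 to 3 pathway genes and 10 to 481 of all genes. A mean of at least 100 gave 36 and the stricter rule 22 of all genes. Between P5 and resistant cells, the 7 pathway genes became 2 under the stricter rule, 0 with the states alone, 0 without P5 of lines #7 and #9, 0 with block and states alone, and 0 to 5 with a line left out. All 399 genes became 73, 42, 15, 0 and 83 to 324 under the same settings. Between P5 and parental cells, all 9 called genes became 5 with a mean of at least 100, 23 with the block, 5 under the stricter rule, 3 with the states alone, 2 without P5 of lines #7 and #9, 0 with block and states alone, and 1 to 22 with a line left out. The settings without P5 of lines #7 and #9 and with block and states alone were chosen after seeing the data.

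With the cell line as a block, calls of named genes changed for Notch3 between resistant and parental and for Jag2 and Neurl1a between P12 and parental cells. Of the 50 other pathway genes, the block called 19 between resistant and parental cells, 9 higher and 10 lower. Between P12 and resistant cells it called 15. Between P5 and resistant cells, Ccnd1, Lfng and Maml3 gained and Rbpj, Aph1b and Dner lost theirs, and no other call of a named gene changed. With block and states alone, the gained calls of Notch3, Jag2 and Neurl1a were not made. Upper-quartile scaling moved the median change of all genes by at most 0.1 (log2). Values near 3 reads, as for Heyl, parental Notch3 and Hey2, are limited by depth, and P5 rests on 3 samples.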
